A study of Mus musculus with 6 samples.

Results

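The cells described here were fibroblasts of the adult mouse sciatic nerve that carried the genes of the outer connective tissue sheath but no detected Pi16. The epineurium is the collagen-rich sheath around a peripheral nerve, the perineurium is the layered barrier inside it, and the endoneurium is the tissue between the nerve fibres. In many tissues, fibroblasts rich in Pi16 and Dpp4 lie around vessels and in connective tissue planes, and a second kind is marked by Col15a1 and Penk. Fibroblasts of both kinds build matrix and release chemokines, growth factors and their inhibitors.

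Cells came from the sciatic nerve at 2 ages, postnatal day 1 (P1) and day 60 (P60). At each age 3 separate suspensions gave 3 libraries on the 10x Chromium platform, which counts captured RNA molecules by unique molecular identifiers (UMIs). All animals carried a beta actin-dsred transgene, by which living cells were sorted from debris, and P0cre, which switched on eYFP in Schwann cells. No genotype or treatment differed between the ages, and each suspension pooled males and females in equal numbers. Age and the day of preparation cannot be told apart, since the labels give no date.

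Members were chosen by raw UMI counts per cell. At P60, 12602 barcodes had 500 to 5000 genes, and 7827 of them had at least 10 UMIs of Dcn, the fibroblast proteoglycan decorin. At least 5 UMIs of Clec3b and Pcolce2 together, 2 genes of the outer sheath, were present in 4896 of these. Of the 4896, 1019 had no Pi16 UMI. Cells with Sox9 or Osr2 (endoneurial fibroblasts) were then removed, followed by cells with more than 1 UMI of the perineurial genes Itgb4, Cldn1 and Msln, and last by cells with Sox10, Pecam1 or Ptprc (Schwann, endothelial and immune cells). This left 594 members out of 24337 cells in the whole series, with 159, 236 and 199 in P60 replicates 1, 2 and 3, or 4.71% ± 0.407 (SD, n = 3) of the cells of a P60 library. The limits cut through a range of values: with all other limits met, 341 cells had 1 Pi16 UMI, 191 had 2 and 1912 had 3 or more. On the other side, 34 cells just missed the Clec3b and Pcolce2 limit with 4 UMIs and 46 cells just met it with 5.

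The P60 libraries held 20092957 to 25978839 UMIs and the P1 libraries 25718954 to 29371559. The median member had 4758, 4119.5 and 3603 UMIs in replicates 1, 2 and 3, against 6512, 5727 and 5299 in Pi16-high cells, defined as P60 cells with at least 10 Dcn and at least 3 Pi16 UMIs (1059, 1177 and 845 cells). A cell with fewer UMIs is more likely to show no Pi16 by chance of counting, so the comparison was also made among cells of 3000 to 8000 UMIs. This narrowed the gap in depth without closing it, and the Pi16 limits still rested on raw counts. Between any pair of libraries at most 32 barcodes were shared, which was 0.932% of the smaller library.

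The label was first checked against its markers, Clec3b, C3, Inmt and Cxcl13. Levels are in CPM, the gene's UMIs scaled to a common total after summing the cells of a population in a library. Clec3b (tetranectin) stood in the rule, and its level was 3260.2, 3208 and 2762 CPM in the 3 libraries against 4252, 4599.5 and 4001 in Pi16-high cells. C3, the central component of complement, reached 1211, 1279 and 1140.0 CPM in the members and 1018, 1016 and 1223 in Pi16-high cells. The populations overlapped, and the fitted log2 difference of 0.21 ± 0.08 (SE) did not pass the threshold (adjusted p = 0.0705 in edgeR's quasi-likelihood test). C3 passed in 2 of the 14 alternative fits and kept its sign in all 14. Inmt, an indolethylamine N-methyltransferase, stood at 1178, 1178 and 794 CPM against 395, 350.1 and 262, with no overlap and a log2 difference of 1.69 ± 0.07 (adjusted p = 2.22e-15). Cxcl13, a chemokine that attracts B cells, stood at 560.4, 742 and 906 CPM against 307, 329 and 530.2. Each library was higher in its members, by a log2 difference of 0.98 ± 0.08 (adjusted p = 6.20e-10). Of the markers outside the rule, the summed levels of Inmt and Cxcl13 were thus higher in the members than in Pi16-high cells. C3 marked both populations.

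**Figure D1:**
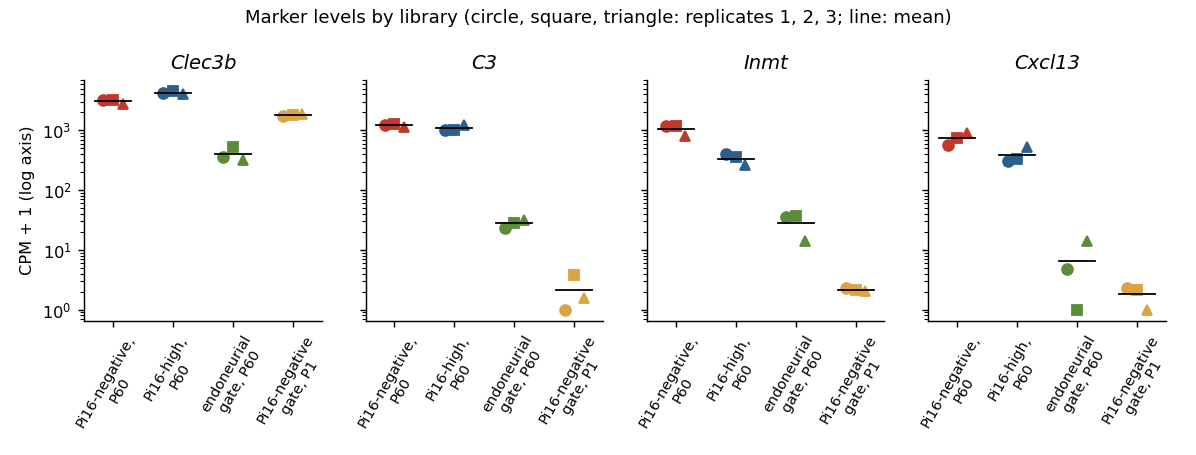
Level of each marker (CPM + 1, log axis) in Pi16-negative members, Pi16-high cells and endoneurial-gate cells at P60 and in the same Pi16-negative gate at P1, 1 point per library and a line at the mean. C3 lies between 1016 and 1279 CPM in both P60 epineurial populations, whereas all 3 P1 libraries lie under 3 CPM.

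Shares of cells were read once every cell was thinned to 1500 UMIs. C3 was seen in 64.8% ± 5.82 (SD, n = 3) of members and 67.1% ± 3.89 of Pi16-high cells, and the exact paired permutation test over libraries gave p = 0.75 (two-sided, higher in 1 of 3 libraries). Inmt was seen in 54.1% ± 3.80 of members and 27.5% ± 2.32 of Pi16-high cells, higher in 3 of 3 libraries (exact permutation p = 0.25, the smallest that 3 pairs allow). Cxcl13 was seen in 23.3% ± 3.84 and 19.97% ± 5.85 (exact permutation p = 0.25, higher in 3 of 3 libraries). In endothelial cells of the same libraries, which should lack these genes and whose median depth was 5450 to 6944.5 UMIs, the shares at 1500 UMIs were 5.82% ± 0.0753, 1.01% ± 0.287 and 0.489% ± 0.427. All 3 markers were thus above this background in the members. Without thinning, the shares in members and Pi16-high cells were 80.98% ± 3.76 and 87.7% ± 0.871 for C3, 69.8% ± 5.57 and 46.7% ± 4.11 for Inmt, and 33.3% ± 2.18 and 31.2% ± 7.71 for Cxcl13, where the members were higher in 2 of 3 libraries.

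Between the members and the Pi16-high cells lay cells with 1 or 2 Pi16 UMIs. With the other limits of the members held fixed, the Inmt level was 1178, 1178 and 794 CPM at 0 Pi16 UMIs, 1287, 888 and 612 at 1 UMI, 982, 535 and 337 at 2 UMIs and 520, 413 and 303 at 3 or more. It was lowest at 3 or more in every library, and P60 replicate 1 was higher at 1 UMI than at 0. The C3 level was 1211, 1279 and 1140 CPM at 0, 1049, 1184 and 939 at 1 UMI, 1155, 916 and 664 at 2 UMIs and 1086, 1073 and 1209 at 3 or more. It was lowest at 2 UMIs in replicates 2 and 3. The Cxcl13 level was 560, 742 and 906 CPM at 0 and 488, 522 and 299 at 1 UMI. At 2 UMIs it was 474, 186 and 337 CPM, and at 3 or more 332, 366 and 593. Cxcl13 was highest at 0 in every library, but in replicates 2 and 3 it was higher at 3 or more than at 2 UMIs. These values describe the limit itself and were not tested.

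The sequences around the start sites of 3 markers and of Cxcl12 are shown because these genes separate the ages or the populations in what follows. Each window runs from 250 bases before to 50 bases after the start annotated by RefSeq on GRCm38.p6, 5′ to 3′ on the gene's strand, and capitals mark TATAAA on either strand. C3 lies on the minus strand at chr17:57228087-57228386, Inmt on the minus strand at chr6:55174941-55175240, Cxcl13 on the plus strand at chr5:95956689-95956988 and Cxcl12 on the plus strand at chr6:117168285-117168584.
C3: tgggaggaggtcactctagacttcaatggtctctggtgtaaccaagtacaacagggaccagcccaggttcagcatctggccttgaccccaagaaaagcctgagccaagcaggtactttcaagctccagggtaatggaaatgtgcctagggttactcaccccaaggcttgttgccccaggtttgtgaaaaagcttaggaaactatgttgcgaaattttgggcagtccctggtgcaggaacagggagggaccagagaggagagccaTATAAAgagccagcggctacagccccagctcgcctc
Inmt: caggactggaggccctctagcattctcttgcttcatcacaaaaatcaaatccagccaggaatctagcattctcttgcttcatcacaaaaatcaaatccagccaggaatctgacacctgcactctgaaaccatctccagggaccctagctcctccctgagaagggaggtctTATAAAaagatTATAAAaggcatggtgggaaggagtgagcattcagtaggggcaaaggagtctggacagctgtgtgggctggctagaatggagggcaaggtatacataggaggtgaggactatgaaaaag
Cxcl13: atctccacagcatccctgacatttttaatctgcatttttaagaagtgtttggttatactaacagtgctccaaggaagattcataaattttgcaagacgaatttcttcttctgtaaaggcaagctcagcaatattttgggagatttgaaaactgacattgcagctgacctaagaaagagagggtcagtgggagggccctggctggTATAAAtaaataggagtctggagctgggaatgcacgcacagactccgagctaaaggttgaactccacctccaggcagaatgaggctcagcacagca
Cxcl12: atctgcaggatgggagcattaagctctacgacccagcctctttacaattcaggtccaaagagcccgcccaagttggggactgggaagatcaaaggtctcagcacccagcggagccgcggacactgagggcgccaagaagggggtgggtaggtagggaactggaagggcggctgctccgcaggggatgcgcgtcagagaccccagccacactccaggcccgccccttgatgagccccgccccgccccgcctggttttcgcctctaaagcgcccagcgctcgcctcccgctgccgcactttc
TATAAA was present in the C3, Inmt and Cxcl13 windows and not in that of Cxcl12, and 13.6% of the 32851 windows of this length in the table hold it. Inmt has it at 2 places, whose first bases lie at -80 and -69 from the annotated start, Cxcl13 at -46 and C3 at 15. CCAAT, searched on both strands in the same way, was in none of the 4 windows, and 37.4% of all windows hold it. The 2 motifs overlap nowhere in these windows, and a match describes letters only.

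Against Pi16-high cells, the members were higher in most listed genes of the Col15a1 kind of fibroblast and lower in those of the Pi16 kind. Both gene lists were chosen with earlier results of these data known, so their counts are descriptions. UMIs were summed per library and population, and edgeR was fitted with the library as a block, since both populations came from the same suspension. Of 10939 genes tested outside the rule, 762 were higher in the members and 838 lower at an adjusted p under 0.05, 14.6% in all (6.97% higher and 7.66% lower). Both populations were cut from the same cells by Pi16, so a gene that follows Pi16 from cell to cell had to differ, and the percentages are given for scale. DESeq2 called 391 higher and 374 lower, and edgeR without the library block called 266 and 312. Among cells of 3000 to 8000 UMIs, edgeR called 710 and 736.

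Of the 12 genes with the highest log2 difference, 3 were chemokines. Cxcl12, the chemokine that retains haematopoietic and immune cells (chr6:117168535-117181367, GRCm38), was at 908, 1076 and 809 CPM in the members and 163, 142 and 127 in Pi16-high cells, a log2 difference of 2.74 ± 0.08 (adjusted p = 1.12e-17). Cxcl14 (chr13:56288643-56296551), a chemokine of skin and stroma, was at 738, 872 and 583 CPM against 130.2, 103 and 134 (log2 difference 2.63 ± 0.12, adjusted p = 6.12e-15). The populations did not overlap in either gene. Ccl19, which attracts cells that carry Ccr7, was at 106, 64.2 and 54.04 CPM against 14.7, 9.999 and 13.5 (log2 difference 2.62). The gene has near-identical copies, between which the counting may have split reads.

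Gdf10 (chr14:33923587-33937983), a ligand of the TGF-beta family, was at 387, 404 and 371 CPM against 74.6, 58.9 and 50.6, a log2 difference of 2.71 ± 0.10. Penk (chr4:4133531-4138819), the precursor of the enkephalin opioid peptides, was at 495, 443 and 417 CPM against 80.5, 91.6 and 85.7 (log2 difference 2.44). Gdf10 and Penk did not overlap between the populations. Ntf3, the neurotrophin that acts on sensory neurons through TrkC, was low but separate, at 52.3, 69.1 and 41.2 CPM against 7.26, 9 and 5.67 (log2 difference 2.94). Apoe, the lipid carrier apolipoprotein E, was at 2198, 2425 and 1459 CPM against 574, 351 and 243 (log2 difference 2.48). The remaining genes of this group were Col15a1, a collagen beside basement membranes, Cyp1b1, an oxidising enzyme, Spon1, a secreted matrix protein, and Vcam1, an adhesion molecule, with log2 differences of 2.74, 2.42, 2.24 and 2.15.

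Tnmd had the highest log2 difference of the group, but it rested on few cells. Tenomodulin is a membrane protein of tendon, and its level was 142, 107 and 21.9 CPM in the members against 10.8, 19.00 and 4.80 in Pi16-high cells (log2 difference 3.01 ± 0.21, adjusted p = 1.98e-11). Its UMIs were in 6 of 159, 8 of 236 and 4 of 199 members. The 5 highest cells of each library held 96.4%, 97.3% and 100% of them. After thinning to 2000 UMIs, Comp was also seen in 5 of 6, 6 of 6 and 1 of 2 of the members with Tnmd, and in 9.80%, 7.89% and 9.25% of the others.

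Genes that were lower in the members included enzymes and epidermal secreted proteins. Chst1, a keratan sulphate sulfotransferase, was at 2.55, 0 and 0 CPM in the members against 46.7, 40.7 and 65.6 in Pi16-high cells (log2 difference -5.91 ± 0.43, adjusted p = 7.48e-11). Only 2 Chst1 UMIs were counted in all members, and the ratio of the 2 summed levels was 0.0157, with an exact 95% counting interval of 0.00190 to 0.0570. Aldh1a3, which makes retinoic acid, was at 2.55, 3.89 and 7.72 CPM against 98.9, 109 and 124. Dmkn, Krtdap and Sbsn, neighbours in one gene cluster and best known from the epidermis, had log2 differences of -4.33, -4.28 and -3.80. Krtdap, for example, was at 19.1, 17.5 and 9.01 CPM against 277, 291 and 371. In each of these genes the lowest Pi16-high library was above the highest member library. Dact2, Pla1a, Car8, Edn1 (endothelin), Il18, Uchl1 and Limch1 made up the rest, with log2 differences between -4.18 and -3.18.

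**Figure D2:**
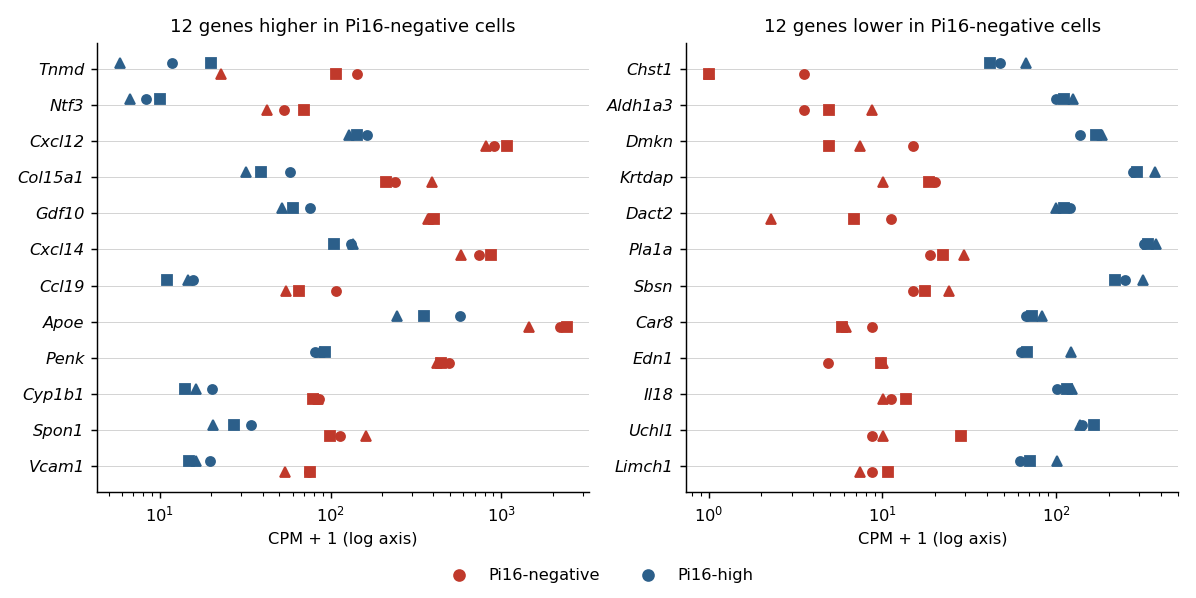
Levels (CPM + 1, log axis) of the 12 genes with the highest and the 12 with the lowest log2 difference in Pi16-negative members (red) and Pi16-high cells (blue) at P60, with circle, square and triangle for replicates 1, 2 and 3. In every gene the 3 red points lie on one side of the 3 blue points, for example Cxcl12 at 809 to 1076 against 127 to 163 CPM.

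These 24 genes kept their direction and their adjusted p under 0.05 in all 14 alternative fits, among them cells of 3000 to 8000 UMIs only, cells thinned to 2000 UMIs and Pi16-high cells under all other limits of the members. By share of thinned cells, Cxcl12 was seen in 45.2% ± 3.85 of members and 14.4% ± 1.92 of Pi16-high cells, Gdf10 in 32.3% ± 2.48 and 7.40% ± 1.04, and Cxcl14 in 29.4% ± 3.47 and 5.999% ± 0.681. In endothelial cells Gdf10 and Cxcl14 were at 0.990% ± 0.473 and 0.473% ± 0.295, while Cxcl12, which arterial endothelium also makes, was at 76.8% ± 0.913.

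Genes of the Pi16 kind of fibroblast were lower as a group. All 19 members of that list were tested and all 19 fell, where 7.66% of all genes tested were lower. Their median log2 difference was -2.26 against -0.01 over all genes tested. The list and the gate rest on the same gene, so the count describes the gate. The fall was deep for Anxa3, an annexin (156 ± 18.7 CPM against 841 ± 19.9, mean ± SD over 3 libraries, log2 difference -2.38), and shallow for the surface proteins Ly6a (2353 ± 289 against 3486 ± 288 CPM, -0.53) and Ly6c1 (1091 ± 168 against 1769.7 ± 299 CPM, -0.65). Tmem100 fell by 0.69 on the log2 scale. Uchl1, a deubiquitinating enzyme, fell from 147 ± 15.2 to 14.6 ± 10.9 CPM.

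Of the 14 genes of the Col15a1 and preadipocyte list, 13 were higher and 1, Fabp4, was lower, with a median log2 difference of 1.74. Over all genes tested, 6.97% were higher and 7.66% lower, and this list too was chosen with earlier results known. Lpl, the lipoprotein lipase, was at 886, 999.7 and 1163 CPM against 277, 270.3 and 380.2 (log2 difference 1.77 ± 0.07). Col4a1, a basement membrane collagen, was at 415, 481 and 605 CPM against 169, 174 and 183 (log2 difference 1.54). The call of Fabp4, a fatty acid carrier that capillary endothelium also makes, did not hold. Its log2 difference was -0.48, and it was not called without P60 replicate 1. The value was 0.54 within 3000 to 8000 UMIs per cell and 0.50 against Pi16-high cells under the members' other limits. Of the 8 adipocyte markers, 3 to 5 had a UMI in the members of a library, and their summed level was 12.9 to 40.9 CPM.

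**Figure D3:**
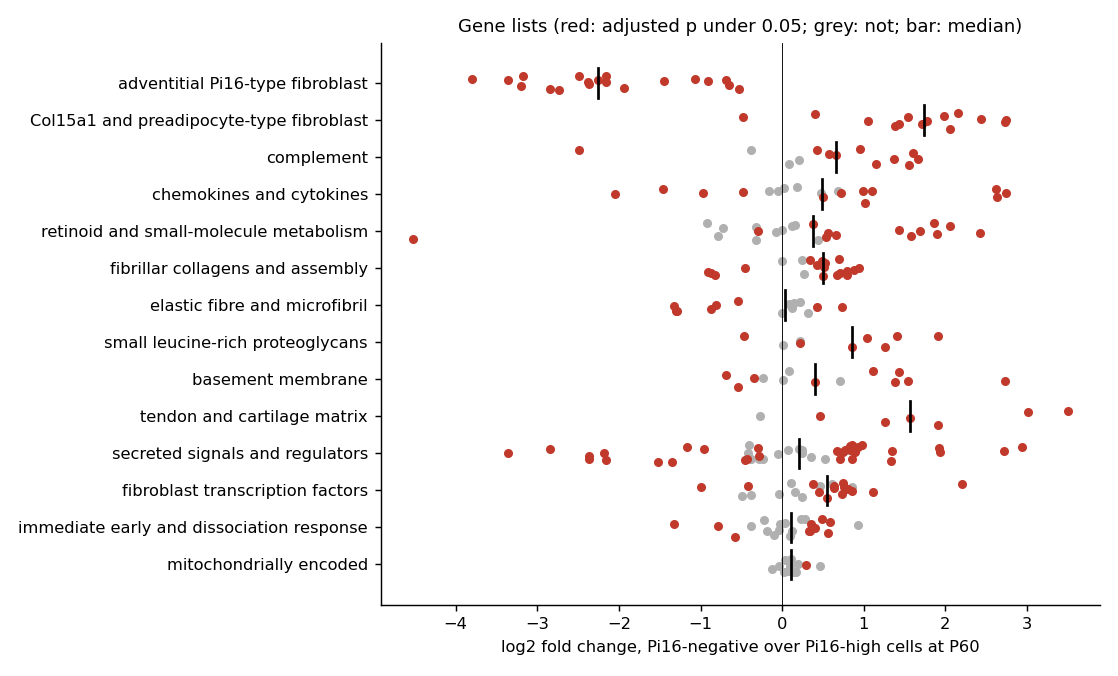
Log2 difference of Pi16-negative members over Pi16-high cells at P60 for each tested gene of 14 lists, red where the adjusted p was under 0.05, with a bar at the median of the list. All 19 genes of the adventitial Pi16-type list lie below 0, and 13 of 14 genes of the Col15a1 and preadipocyte-type list lie above it.

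Of 13 complement genes tested, 9 were higher, 1 lower and 3, among them C3, not called, with a median log2 difference of 0.65. This and the list counts that follow stand against 6.97% higher and 7.66% lower over all genes tested. Serping1, the C1 inhibitor, was at 3724, 3584 and 2523 CPM against 2908, 2792 and 1883 (log2 difference 0.43). Its 2 ranges overlapped across libraries, and within each library the members were higher. C1s1 and C1ra, the proteases of the C1 complex, differed by 0.58 and 0.65. Cd55, which protects cells from complement and is also on the Pi16-type list, was the gene that fell.

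Among chemokines and cytokines, 8 of 18 were higher, 4 lower and 6 not called, with a median of 0.49. Besides Cxcl12, Cxcl14, Ccl19 and Cxcl13, Ccl11 (eotaxin) was at 902, 878 and 1083 CPM against 677, 691 and 706 (log2 difference 0.50). Ccl7 had values of 183, 52.6 and 27.02 CPM against 54.9, 38.6 and 69.98 and did not pass (adjusted p = 0.102), nor did Csf1, with 81.7, 104 and 111 against 107, 108 and 129 CPM. In the list of retinoid and small-molecule metabolism, 11 of 23 were higher and 2 lower, with a median of 0.38. Mgst1, a microsomal glutathione transferase, was higher by 0.54. Aldh1a1, another enzyme that makes retinoic acid, stood at 117, 94.4 and 75.9 CPM against 96.8, 102 and 98.1 and did not pass.

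Matrix genes split by kind. Of 20 fibrillar collagens and assembly genes, 13 were higher and 4 lower, with a median of 0.50. Col3a1 was at 6398, 6770.1 and 9520.0 CPM against 3551, 3392 and 5290.2 (log2 difference 0.94 ± 0.05), Col1a1 differed by 0.79 and Col1a2 by 0.71. Of 14 elastic fibre genes, 2 were higher, 6 lower and 6 not called. Mfap5, a microfibril protein, fell from 3455, 3608 and 3127 CPM in Pi16-high cells to 1446, 1556 and 1076 in the members (log2 difference -1.29 ± 0.07), and Fbn1, fibrillin, fell by 1.30 on the log2 scale. Fbln1 went the other way, with 0.73. Elastin itself stood at 388, 325 and 223 against 328, 306 and 272 CPM and did not pass.

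Of 9 small leucine-rich proteoglycans, which bind collagen fibrils, 6 were higher and 1 lower, with a median of 0.86. Lum, lumican, was at 1810.1, 1697 and 1280.2 CPM against 762, 718 and 573 (log2 difference 1.26), Bgn differed by 1.04, and Aspn fell by 0.47 on the log2 scale. Of 7 tendon and cartilage genes, 6 were higher and none was lower, with a median of 1.57. Comp, cartilage oligomeric matrix protein, was at 237, 195 and 129.9 CPM against 87.5, 83.3 and 29.9 (log2 difference 1.57 ± 0.12). Much of this rested on 5, 6 and 3 members with at least 10 Comp UMIs, which held 58.1%, 59% and 43.6% of them. Without those cells Comp stood at 104, 83.9 and 75.1 CPM in the members. Pi16-high cells were not trimmed in this way. Thbs4 differed by 1.26, a call that did not hold within 3000 to 8000 UMIs per cell, and Fmod by 1.91. Of 13 basement membrane genes, 6 were higher, 3 lower and 4 not called. Nid1, nidogen, was the most abundant of the 3 lower genes, with 394, 394 and 562 CPM against 611, 645 and 1006.

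Of 43 secreted signals, 17 were higher, 14 lower and 12 not called, where 6.97% of all genes tested were higher and 7.66% lower. Igfbp7, an insulin-like growth factor binding protein, was at 3018, 2925 and 2026 CPM against 1484, 1197 and 694, and Igfbp5 at 911, 641 and 991 against 2074, 2179.8 and 2330.4, in opposite directions (log2 differences 1.33 and -1.35). The Wnt inhibitor Sfrp4 was higher by 0.77, while its relative Sfrp2 was lower by 1.52 on the log2 scale, a call that DESeq2 did not make. Igfbp6 differed by -0.29, and the call was lost in 6 of the 14 alternative fits, among them those without P60 replicate 1 and without replicate 2. Among 23 fibroblast transcription factors, 12 were higher and 2 lower, the latter near the 7.66% of all genes tested. Nfib was at 489, 467 and 497 CPM against 316, 305 and 347, Klf4 at 191, 199.6 and 296 against 353, 395 and 697, and Ebf1, at 908, 931 and 862 against 891, 965 and 1015, did not pass.

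Lists that can follow tissue handling were read for the same contrast. Of 22 immediate early and dissociation genes, 7 were higher, 3 lower and 12 not called, with a median of 0.11. Junb was higher by 0.59 and Klf2, which shear and handling also move, was lower by 1.32 on the log2 scale. Fos was higher by 0.36, a call lost without P60 replicate 1. Of 13 mitochondrially encoded genes 1, mt-Nd1, was higher (0.29), near the 6.97% of all genes tested, and 12 were not called. The part of cell handling in the results was not tested.

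Markers of other cells were read in both populations. The 8 perineurial markers summed to 92.6 to 102 CPM in the members against 205 to 539 in Pi16-high cells, and 4 of the 5 tested were lower in the members (Krt19, Slc2a1, Lypd2 and Perp). The 9 endothelial markers summed to 52.8 to 85.7 CPM against 112 to 240, with 3 of 8 lower, and the 9 mural markers to 172 to 218 against 268 to 399, with 3 of 8 lower and 1 higher. The comparator carried no limit on these cells. Against the Pi16-high cells that met every other limit of the members, a choice made after seeing the data, the summed levels were 112 to 137, 47.4 to 87.3 and 190 to 229 CPM. The calls of Slc2a1, Lypd2, Perp, Cldn5, Cdh5, Esam and Tagln were then lost (Cdh5 with 0.49 in place of -1.35), and 633 genes were higher and 705 lower in all. Slc2a1, Lypd2, Tagln, Acta2 and Cdh5 were also not called within 3000 to 8000 UMIs per cell. The 10 Schwann markers summed to 426 to 631 CPM in the members and 508 to 654 in Pi16-high cells, of which Pmp22 made up most. S100b, a calcium-binding protein of Schwann cells, was the 1 gene called of the 6 tested, higher in the members at 62.5, 81.8 and 68.2 CPM against 48.2, 41.7 and 43.6 (log2 difference 0.74). Of the 11 endoneurial markers, which summed to 835 to 971 CPM in the members and 1328 to 1858 in Pi16-high cells, 4 of the 6 tested were higher and 1 was lower, where Cpxm2 was not called without P60 replicate 1 or replicate 3. Abca8a, a transporter, was higher by 0.78 and Myoc, myocilin, was lower, at 586, 611 and 426 CPM against 1489.9, 1559 and 1049.5. The part of these cells in the results was not tested. Sox10, Pecam1 and Ptprc were at 0 by rule.

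The 10 immune markers summed to 220 to 1081 CPM in the members, with the highest value in P60 replicate 2. Retnla, made by macrophages, was at 133, 619 and 119.7 CPM. In replicate 2, 1 cell with at least 10 Retnla UMIs held 85.5% of them, and 2 cells held 86.5% of those of Cd74, a chaperone of antigen presentation. In replicate 3, 1 cell held 59.1% of the Retnla UMIs. Without cells of at least 10 UMIs, Retnla stood at 133, 90.4 and 49.2 CPM in the 3 libraries, and Cd74 in replicate 2 at 47.5 in place of 347. In cells thinned to 1500 UMIs, Retnla was seen in 11.98% ± 5.16 of members, 12.2% ± 6.45 of endothelial cells and 55.8% ± 6.80 of immune cells, so its share in the members did not exceed the background. No immune marker was called between members and Pi16-high cells.

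The members were not uniform among themselves. In 568 members thinned to 2000 UMIs (26 shallower cells left out), the ratio of variance to mean was computed within each library for 2161 genes. It was 1.05 at the median gene. Malat1, a nuclear RNA that also follows cell quality, had 29.5, the mean of 28.1, 23.8 and 36.6 in the 3 libraries. Gsn (gelsolin) had 23.99, Apod, a lipid carrier, 21.9, Sparc, a matrix protein, 16.7, Sfrp4 14.2, Cxcl13 13.4, Igfbp6 12.9, Sfrp2 10.7, Cxcl12 10.2, Apoe 9.45, Col3a1 9.23 and Smoc2, a matrix regulator, 8.93. Retnla led the list at 39.3, but this was 99.7 in replicate 2, 17.2 in replicate 3 and 0.935 in replicate 1, and Fabp4 and Cd74 were likewise carried by replicate 2 (35.4 and 30.7, against at most 2.28 in the others). Cxcl13 was unevenly spread in every library. It had no UMI in 72.2% of thinned members, on average over the libraries, while 14 of 159, 25 of 236 and 21 of 199 unthinned members had at least 10 UMIs and held 74.5%, 79.7% and 77.4% of all its UMIs.

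Some of the variable genes varied together. Igfbp6 and Sfrp4 had high counts in the same members of a library (Spearman's rho 0.61, 0.49 and 0.58 in replicates 1, 2 and 3, over 159, 234 and 175 cells). Lpl ran against Igfbp6 with rho of -0.58, -0.55 and -0.56. With Lpl went C3 (0.50, 0.47 and 0.39), Apoe (0.41, 0.50 and 0.36), Cxcl14 (0.46, 0.46 and 0.33) and Cxcl13 (0.38, 0.35 and 0.45). Sparc and Col3a1 varied together as well (0.41, 0.54 and 0.67), with mean rho to Lpl of -0.12 and -0.06. Their mean rho to Igfbp6 was 0.30 and 0.19, positive in each library. Smoc2 and Sfrp2 had mean rho between -0.02 and 0.02 with Igfbp6 and Lpl. Points are cells of 1 library at equal depth, whose counts compete for the same 2000 UMIs, so the values are descriptions and carry no p.

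Genes that followed Igfbp6 or Lpl most closely were read from all 2161, by mean rho over libraries among genes with the same sign in all 3. This reading was chosen after the values were seen. Igfbp6 was followed by Sfrp4, Cd9 (mean rho 0.48), Tgfbi (0.46), Chrdl1 (0.40), a bone morphogenetic protein inhibitor, and Col1a2 (0.39). Lpl was followed by C3, Apoe, Fst (0.42), the activin inhibitor follistatin, and Cxcl14 (0.42). Comp went with Igfbp6 (0.38, 0.31 and 0.35). In thinned members with a Comp UMI, Cxcl12 was seen in 20%, 29.2% and 17.6%, against 51.1%, 53.8% and 55.1% of the others. C3 was seen in 92.3%, 92.2% and 92.7% of members with Cxcl13 and in 64.2%, 70% and 63.3% of the others. Inmt, in contrast, was seen in 59.0%, 54.7% and 67.3% of members with Cxcl13 and in 62.5%, 60.6% and 54.2% of the others. The label's markers C3 and Cxcl13 thus varied with Lpl, and Inmt showed no rank correlation of at least 0.3 with Igfbp6 or Lpl in any library.

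**Figure D4:**
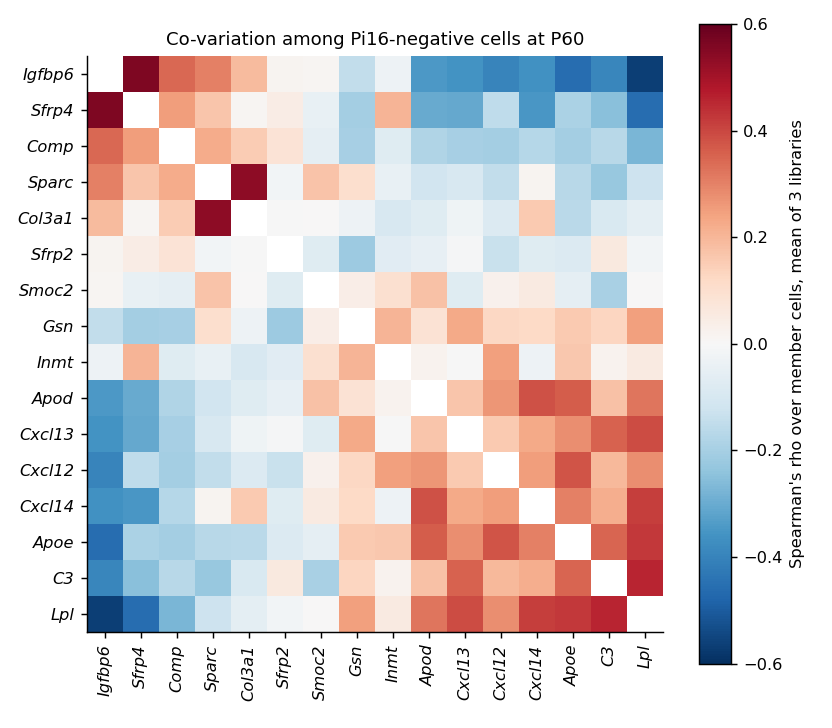
Spearman's rho between 16 genes over Pi16-negative members of P60 at 2000 UMIs per cell, as the mean of 3 libraries (red positive, blue negative, diagonal left blank). Igfbp6 and Sfrp4 form a red corner with a mean rho of 0.56, and a red block from Apod to Lpl faces them across blue, where Igfbp6 and Lpl have a mean rho of -0.56.

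The endoneurial fibroblasts served as a second comparator, through cells with at least 3 UMIs of Sox9 and Osr2, fewer than 5 of Clec3b and Pcolce2, no Pi16 and the other limits of the members. There were 62, 71 and 67 such cells, whose median depth was 3836.5, 3395 and 2968 UMIs. Of 5976 genes tested, 831 were higher in the members and 748 lower, 26.4% in all (13.9% higher and 12.5% lower), and DESeq2 called 431 and 326. The gates differ in Clec3b, Pcolce2, Sox9 and Osr2, so genes that follow these had to differ.

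Higher in the members were a cell adhesion gene, matrix genes and signals that the endoneurial gate nearly lacked. Mmp3, a matrix protease, was at 327, 431 and 482 CPM against 0, 3.95 and 4.35, and Chrdl1 at 239, 180.1 and 232 against 0, 0 and 4.35. Mmp3 had 2 UMIs and Chrdl1 1 in all endoneurial-gate cells, and the ratios of the summed levels were 155 (exact 95% counting interval 42.9 to 1284) and 159.6 (28.5 to 6315). Emb (embigin), Spon2, Ccl19 and Ntf3 had no UMI there. Set against 3 counts over the whole group, Emb was at least 31.1-fold higher in the members, Spon2 23.5-fold, Ccl19 18.4-fold and Ntf3 13.9-fold. Counting error alone is covered by these intervals and limits. The markers followed: C3 was at 22.6, 27.7 and 30.5 CPM in the endoneurial gate, Inmt at 33.9, 35.6 and 13.1 and Cxcl13 at 3.77, 0 and 13.1, so all 3 were higher in the members, by log2 differences of 5.53, 5.27 and 7.08 (adjusted p = 1.22e-52, 7.21e-50 and 4.88e-46).

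Lower in the members were cartilage-type collagens and Angptl7. Angptl7, a secreted angiopoietin-like protein, was at 306, 112 and 81.1 CPM in the members against 7664, 6616 and 6151 in the endoneurial gate (log2 difference -5.42 ± 0.11). The transcription factor Foxs1 stood at 12.8, 0.973 and 1.29 against 437, 383 and 248 CPM and Col9a2 at 1.28, 1.95 and 1.29 against 136, 67.2 and 144. A2m, Col2a1 and Col26a1 had 1, 1 and 3 UMIs in all members, against 90, 42 and 55 in the smaller endoneurial gate. Of the 11 endoneurial markers, 8 were tested and all 8 were lower, where 12.5% of all genes tested were lower. Sox9 and Osr2 of this list set the 2 gates apart, so the count describes the gates. Some genes that set the members apart from Pi16-high cells were also seen in the endoneurial gate. Of the 13 genes of the Col15a1 and preadipocyte list tested here, 7 were higher in the members, 3 lower and 3 not called. Over all genes tested, 13.9% were higher and 12.5% lower. Col15a1 was seen in 81.1% ± 9.62 of thinned endoneurial-gate cells, 28.2% ± 2.26 of members and 5.31% ± 1.21 of Pi16-high cells, and Cxcl12 in 46.7% ± 1.65, 45.2% ± 3.85 and 14.4% ± 1.92.

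The same gate was then applied at P1, where it held 227, 280 and 276 cells, or 6.66% ± 0.166 (SD, n = 3) of a library. At P1 part of the eYFP-positive Schwann cells had been sorted out, which was not done at P60, so this share and the 4.71% ± 0.407 at P60 are of different populations and were not compared. Their median depth was 6656, 6189.5 and 6546 UMIs, above that of the P60 members. Among cells that met the Dcn limit and the Clec3b and Pcolce2 limit, those that passed the Pi16-negative gate were 29.0% ± 1.30 at P1 and 12.3% ± 2.83 at P60, while those with at least 3 Pi16 UMIs were 22.9% ± 0.748 and 61.0% ± 1.37. These shares rest on the rule and were not tested. Of 8972 genes tested between the ages, 1801 were higher at P60 and 1675 lower, 38.7% in all (20.1% higher and 18.7% lower), and the libraries of the 2 ages did not overlap in 50.7% of the genes.

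All 3 markers outside the rule were higher at P60 and near 0 at P1. C3 had 6 UMIs in all P1 cells of the gate and 3149 at P60 (log2 difference 10.00 ± 0.26, adjusted p = 1.18e-12). Inmt had 6 and 2750 UMIs (9.79 ± 0.26) and Cxcl13 4 and 1905 (9.80 ± 0.32). Comp had 1 UMI at P1 against 237, 195 and 129.9 CPM at P60, a ratio of 984 (exact 95% counting interval 176 to 38953). Ccl19 had no UMI at P1. Set against 3 counts over all P1 cells of the gate, its level was at least 129-fold higher in the members. Retnla had 2 UMIs at P1. Its P60 level rested in part on the few cells named above in replicates 2 and 3. In replicate 1, 74 of 159 members had a Retnla UMI and none had 10 or more. At P60 the share of thinned members with Retnla did not exceed that of endothelial cells. Clec3b stood at 1735, 1783 and 1843 CPM at P1, in the rule at both ages. Of 13 complement genes, 11 were higher at P60 and none lower, with a median log2 difference of 2.28 against -0.01 over all genes. Of 9 small leucine-rich proteoglycans 7 were higher and 1 lower, where 20.1% of all genes tested were higher and 18.7% lower.

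The genes with the lowest log2 difference at P60 included Dlk1. Dlk1, a Notch-related inhibitor of fat cell formation, fell from 9882, 10087 and 10129 CPM at P1 to 17.9, 30.2 and 6.43 at P60 (log2 difference -8.96 ± 0.23, adjusted p = 1.13e-12). Agtr2, the type 2 angiotensin receptor, fell from 1170.3, 1331 and 1343 to 6.38, 1.95 and 1.29 CPM and Fbn2, a fibrillin of developing tissue, from 209, 233 and 249 to 3.83, 0.973 and 2.57. Igfbp2 had no UMI in the P60 members, at least 47.5-fold lower when set against 3 counts. Prss35 and Gap43, a growth-associated protein of axons and immature cells, had 2 UMIs each. Of the 20 fibrillar collagens and assembly genes 4 were higher and 8 lower at P60, and of the 22 immediate early genes 5 were higher and 13 lower. Over all genes tested, 20.1% were higher and 18.7% lower, so the higher counts of both lists were near the share of all genes.

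Whether the contrast between Pi16-negative and Pi16-high cells already stood at P1 was read from the P1 libraries, in which Pi16-high cells numbered 193, 212 and 226. The fit was added after seeing the data. The 24 leading genes were chosen for their P60 contrast, so their P1 values had no part in the choice. The difference between the ages is tilted toward a larger P60 contrast. The P1 populations were cut by Pi16 as well, so a gene that follows Pi16 from cell to cell had to differ there too. At P1, 632 of 10422 genes were higher in Pi16-negative cells and 767 lower, 13.4% in all (6.06% higher and 7.36% lower). Of the 12 genes higher at P60, 4 were also higher at P1, none was lower and 8 did not pass. Of the 12 lower genes, 9 were also lower at P1 and 3 did not pass.

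Krtdap and Aldh1a3 were among those already apart at P1. Krtdap was at 32.7, 21.6 and 15.6 CPM in Pi16-negative cells of P1 against 241, 309 and 259 in Pi16-high cells (log2 difference -3.59, adjusted p = 2.33e-16), and Aldh1a3 at 3.85, 2.22 and 4.83 against 63.3, 51.8 and 47.7 CPM (-3.90, adjusted p = 5.48e-13). Cxcl12 was higher at P1 too, at 315, 305 and 320.1 against 111, 110.2 and 96.6 CPM (log2 difference 1.53), as was Vcam1. Penk was well detected at P1 without a called contrast, at 363, 398 and 372 against 339, 358 and 323 CPM (log2 difference 0.12, adjusted p = 0.373). Col15a1 at P1 was at 8.33, 6.09 and 6.97 against 13.99, 9.96 and 7.16 CPM and Cxcl14 at 6.41, 4.99 and 6.97 against 4.66, 5.31 and 5.37, neither called. Gdf10, at 12.2, 24.4 and 19.8 against 17.99, 10.6 and 23.9 CPM, was not called either.

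The difference between the ages, tested in 1 fit over all 12 sums of population and library, passed for 771 genes, 7.4% of those tested (4.02% with a higher and 3.38% with a lower value at P60). The contrast was larger at P60 for 8 of the 12 higher genes and 5 of the 12 lower ones, and smaller for none. Penk differed by 2.32 ± 0.11 on the log2 scale (adjusted p = 7.96e-15), Col15a1 by 3.28 ± 0.51 (5.19e-05), Gdf10 by 2.64 ± 0.29 (1.78e-07) and Cxcl12 by 1.21 ± 0.12 (3.44e-08). For Krtdap the difference was -0.68 ± 0.32 and for Aldh1a3 -0.61 ± 0.51, and neither passed (adjusted p = 0.242 and 0.602). By library size alone 343 genes had a higher and 519 a lower difference between the ages, against 419 and 352 in the fit reported. The Pi16-high cells themselves differed in make-up between the ages. Sox9 or Osr2 was seen in 47.2%, 42.5% and 46.5% of them at P1 and in 32.9%, 30.8% and 20.6% at P60. The fit was not repeated with Pi16-high cells under the members' other limits, and the part of this shift was not tested.

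**Figure D5:**
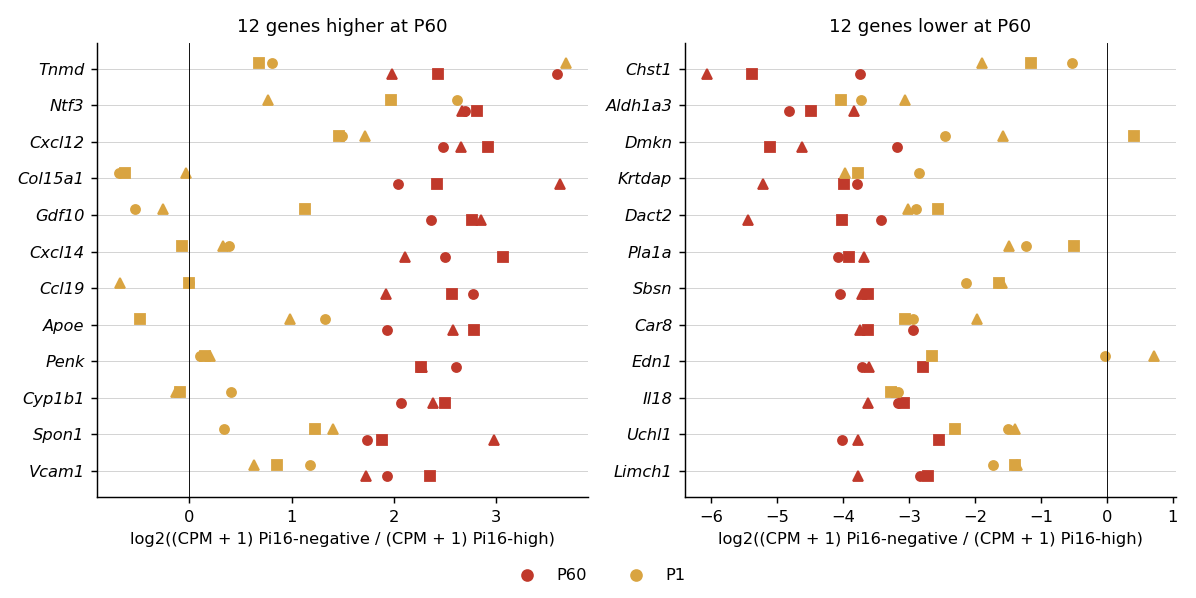
Log2 ratio of the level in Pi16-negative over Pi16-high cells (CPM + 1 in each) for the 24 leading genes, in the libraries of P60 (red) and P1 (yellow), with circle, square and triangle for replicates 1, 2 and 3. Penk lies near 0 in the 3 P1 libraries and above 2 in the 3 P60 libraries, whereas Krtdap and Aldh1a3 lie below -2 at both ages.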

How the data were processed

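Per the labels, cells were prepared with the 10x Chromium Single Cell 3' Kit v2. The authors deposited raw UMI counts for every library, arranged by gene and barcode and made with Cell Ranger 2.0.2 and the GRCm38.p5 build as the submitters' processing notes list them (the methods name a human build); values were not normalised and libraries were kept apart. Strand use in counting is not given in the sources used here. Replicate numbers are those of the labels. Barcodes with 500 to 5000 genes were kept, and no doublet caller was run. The members, gene lists and comparisons were chosen with earlier results of these data known.

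From the counts, UMIs were summed per library and population and tested with edgeR 4.0.16 (TMM, filterByExpr, quasi-likelihood F test, R 4.3.3), with Benjamini-Hochberg adjustment over all genes outside the 12 rule genes and a threshold of 0.05. The library was a block between populations of P60 and in the fit of the difference between the ages, and none was used in the comparison of the same gate between the ages, where replicate numbers did not pair the libraries (correlations of same-numbered deviations 0.02, 0.01 and 0.05). SE is the log2 difference divided by the square root of F. The alternatives were DESeq2 1.42.0, other blocks, scaling, count filters, depth and mitochondrial limits, stricter gates and leaving out each library. The fits were tested on simulated data: of genes changed 2-fold, 95 of 100 were recovered for Pi16-negative against Pi16-high cells among 10756 genes, 60 of 93 for the endoneurial comparison among 5625, 79 of 100 for the ages among 8677 and 79 of 100 for the difference between the ages among 10432. Unchanged genes made up 2.99%, 4.46%, 5.32% and 6.42% of the calls in these 4 fits. Changed genes were drawn only from those above a minimum level, and no difference between libraries was built in. Recovery of genes near single UMIs was thus not measured.

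Cells were thinned without replacement to 1500 UMIs for shares and to 2000 for variation (genes with a mean of at least 0.1 UMI per cell). Intervals are exact (Clopper-Pearson) at 95% and, like the floor of 3 counts, cover counting error only. Genes were named by rule: the 12 highest and 12 lowest log2 differences against Pi16-high cells among called genes with at least 50 CPM in the higher population and 1 direction in all 3 libraries, 6 each in the other comparisons, up to 4 called and 2 not called per list by level, and the 15 most variable. Cd55 and the genes that follow Igfbp6 and Lpl were named after their values were seen. Coordinates are from GENCODE M21 on GRCm38, which holds 41435 of the 41605 identifiers. C3, Anxa3, Col1a2, Col3a1, Col4a1, Gsn, Sbsn, Car8 and Limch1 are among the named genes that overlap another gene on the same strand.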

Additional observations from a re-analysis of the deposited data

Results flagged for a closer look

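The contrast between Pi16-negative and Pi16-high cells differed between the ages for 13 of the 24 leading genes, by the interaction term of the edgeR fit over both ages (adjusted p under 0.05, against 7.4% of all genes tested). The values are the log2 difference at P60 minus that at P1, and these genes had been chosen for a large contrast at P60. Pi16-high cells carried no limit on Sox9 or Osr2, and their share with these genes differed between the ages. Cxcl12 had 1.21, Col15a1 3.28, Gdf10 2.64, Cxcl14 2.41, Apoe 1.98, Penk 2.32, Cyp1b1 2.34 and Vcam1 1.29, all from genes higher in Pi16-negative cells. Chst1 had -4.56, Dmkn -2.88, Sbsn -1.85, Uchl1 -1.40 and Limch1 -1.60, all from genes lower in them. The Chst1 value rested on 2 UMIs in all P60 members and ran from -8.58 to -3.82 over the alternatives. Chst1, Dmkn and Limch1 were not called by DESeq2, Dmkn also not without P1 replicate 2 or P60 replicate 2, and Uchl1 not without P1 replicate 3. Without the library block, Dmkn, Uchl1 and Limch1 were not called. Apoe was at 271, 282 and 409 CPM in Pi16-negative cells of P1 and 107, 394 and 206 in Pi16-high cells. Cyp1b1 was low in both populations at P1, at 10.9, 5.54 and 4.83 against 7.996, 5.97 and 5.37 CPM. Groups of 3 libraries were not searched for outlying samples.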

How the results depend on the processing

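The 24 leading genes against Pi16-high cells kept direction and call in all 14 alternatives, and the leading genes of the other comparisons in all of theirs (9 for the endoneurial gate, 12 for the ages). DESeq2 lowered the counts, to 391 higher and 374 lower against Pi16-high cells (762 and 838 reported), 431 and 326 against the endoneurial gate (831 and 748) and 199 and 114 for the difference between the ages (419 and 352). Without the replicate block the counts were 266 and 312 against Pi16-high cells and 160 and 111 for the difference between the ages, and 34 of the 133 genes named against Pi16-high cells lost their call. The replicate block between the ages, whose numbers do not pair the libraries, gave 1760 and 1613 calls. Cells thinned to 2000 UMIs gave 445 and 498. Leaving out 1 library gave 521 to 750 higher and 570 to 816 lower against Pi16-high cells, 595 to 723 and 516 to 601 against the endoneurial gate, 1546 to 1988 and 1255 to 1812 between the ages, and 289 to 444 and 223 to 341 for the difference between the ages, where P60 replicate 2 moved the lower count from 352 to 223. The Inmt share exceeded that of Pi16-high cells by 26.6 percentage points, by 23.1 without thinning, 29.1 at 3000 UMIs and 22.1 against Pi16-high cells under the members' other limits. Leaving out 1 library gave 25.9 to 27.7 for Inmt, -6.61 to 0.03 for C3 and 1.65 to 4.79 for Cxcl13. Against Pi16-high cells under the members' other limits, the Cxcl13 share was 2.76 percentage points higher, with members higher in 2 of 3 libraries. Signs turned for Fabp4 (0.54 at 3000 to 8000 UMIs, 0.50 under the other limits), Cdh5 (0.0123 and 0.49) and Ccl21a (0.0121 under the other limits, and -1.39 to 0.21 when 1 library was left out, with 0.21 without P60 replicate 1). The cause was not tested. Library size alone, the other limits for Pi16-high cells, and the whole fit of the difference between the ages were chosen after seeing the data. With 62 to 236 cells and 229711 to 1027309 UMIs in each P60 sum of members or endoneurial-gate cells, genes under a few CPM rest on single UMIs.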
